A study of Arabidopsis thaliana with 6 samples.

Results

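The methionine and S-adenosylmethionine (SAM) cycle genes are 10 protein-coding genes of Arabidopsis thaliana that encode the enzymes by which a leaf cell makes, uses and regenerates its main methyl donor. They were selected by gene identifier alone, as enzymes of this cycle, from a set proposed with earlier results of these data known, and are 10 of the 33331 genes listed in the table of RNA immunoprecipitation sequencing (RIP-seq) signal. They comprise the methionine synthases ATMS1 and MS2, the SAM synthetases SAM1, SAM2, MTO3 and MAT3, the S-adenosylhomocysteine (SAH) hydrolases SAHH1 and SAHH2, and the adenosine kinases ADK1 and ADK2. In RIP-seq, RNA recovered together with a tagged protein is sequenced. The protein was AtGRP7, a glycine-rich RNA-binding protein whose level follows the circadian clock.

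All 6 libraries came from aerial tissue of AtGRP7::AtGRP7-GFP plants, in which the fusion with green fluorescent protein is driven by the AtGRP7 promoter and the plants lack functional endogenous AtGRP7 (grp7-1), and each sample was bulked from several plants. Plants had grown for 16 days under 12 h of light and 12 h of darkness before release into continuous light (LL). The fusion protein was recovered on GFP-Trap beads from tissue fixed with 1% formaldehyde after 24 h in LL (LL24, subjective morning, 3 libraries) or 36 h (LL36, subjective evening, 3 libraries). Both groups carried the same transgene and the same mutation, so the time of harvest was the only factor that differed by design. The comparison of LL36 with LL24 asked whether the signal of these transcripts differed between the harvests. Time of day and time spent in continuous light changed together, so their effects cannot be told apart. RNA of wild-type plants or of the input was not used here, so that more transcript in the tissue and more binding by AtGRP7 cannot be told apart.

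The cycle runs as follows. Methionine synthase moves a methyl group from a folate to homocysteine, SAM synthetase joins the methionine to the adenosyl part of ATP, and methyltransferases then pass the methyl group on to lipids, cell wall precursors, chlorophyll intermediates, DNA and many other acceptors. The SAH left behind inhibits methyltransferases. SAH hydrolase splits it into homocysteine and adenosine, and adenosine kinase removes the adenosine as AMP, which keeps the hydrolase running forward. In leaves SAM is also the source of polyamines and of ethylene.

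Values are given as scaled TPM of the recovered RNA, and level and abundant refer to this signal only. TPM counts transcripts per 1000000 after correction for length. It holds no record of sequencing depth, and the precision of each value is therefore taken from the spread over libraries. The listed TPM of a library summed to between 95948 in LL36 replicate 3 and 165739 in LL24 replicate 3. They were rescaled to a sum of 1000000 and divided by a trimmed-mean factor of 0.808 to 1.22. A single gene model, AT2G01021, took 63.5% to 69.8% of the listed TPM, and the 10 members together took 0.0383% to 0.0702%. The green leaf markers RBCS1A, LHCB1.3, RCA, CA1 and PSBO1 were at mean levels of 178 to 14406 scaled TPM, whereas the root markers COBL9 and EXPA7 were at 0 in every library and CASP1 and IRT1 did not pass 0.125 scaled TPM in any. The morning clock gene LHY had means of 10.5 ± 2.38 (LL24) and 0.159 ± 0.0348 (LL36) scaled TPM, and the evening gene TOC1 of 0.588 ± 0.0694 and 4.61 ± 0.172. Here and below, errors of means are SD over the 3 libraries of a time point. Signal of AtGRP7 itself, whose reads include the transgene, had means of 22.9 ± 3.07 (LL24) and 1779 ± 183 (LL36) scaled TPM.

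Since 4 of the 5 pairs of members are close relatives, it was first asked whether sequencing reads could be assigned to 1 gene of a pair. Coding sequences were compared in the RefSeq annotation of the TAIR10.1 genome. Identity was 88.4% over 2298 bases for ATMS1 and MS2, 86.4% over 1458 bases for SAHH1 and SAHH2, 88.2% over 1182 bases for SAM1 and SAM2, and 88.2% over 1035 aligned bases for ADK1 and ADK2. MTO3 and MAT3 were 79.4% identical and were paired as the remaining SAM synthetases. Each of them was about as close to SAM1 and SAM2, with 77.9% to 80.6% identity. The 100-base coding windows in which the pairs resemble each other most are shown for the 3 pairs whose balance shifted most, because differences in such windows decide to which gene a read of 100 nt belongs. Capitals mark the bases that differ.
ATMS1, bases 721 to 820 of the coding sequence: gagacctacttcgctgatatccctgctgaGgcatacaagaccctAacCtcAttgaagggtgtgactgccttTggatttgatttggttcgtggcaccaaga
MS2, bases 721 to 820 of the coding sequence: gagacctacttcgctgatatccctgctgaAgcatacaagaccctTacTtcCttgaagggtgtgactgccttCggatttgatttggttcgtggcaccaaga
SAHH1, bases 550 to 649 of the coding sequence: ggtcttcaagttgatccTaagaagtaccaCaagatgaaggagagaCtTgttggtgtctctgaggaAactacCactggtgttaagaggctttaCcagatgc
SAHH2, bases 550 to 649 of the coding sequence: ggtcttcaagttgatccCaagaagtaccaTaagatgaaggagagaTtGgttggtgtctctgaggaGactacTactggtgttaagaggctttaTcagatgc
MTO3, bases 236 to 335 of the coding sequence: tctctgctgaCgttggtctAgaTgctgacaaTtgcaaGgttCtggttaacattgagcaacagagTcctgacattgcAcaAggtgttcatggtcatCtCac
MAT3, bases 236 to 335 of the coding sequence: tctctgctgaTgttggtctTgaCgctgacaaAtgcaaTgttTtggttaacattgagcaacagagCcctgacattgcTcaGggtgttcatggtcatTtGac
Even there the genes differed at 5 bases (ATMS1 and MS2), 7 bases (SAHH1 and SAHH2) and 11 bases (MTO3 and MAT3). In the most similar windows SAM1 and SAM2 differed at 4 bases, and ADK1 and ADK2 at 3.

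No stretch of 100 nt, the length of the reads, was shared between any of the 10 members. At 50 nt, the shortest trimmed read that was kept, ATMS1 and MS2 shared 1 stretch, which was 0.0302% of the stretches of ATMS1 and 0.0330% of those of MS2. The longest run of identical bases was 50 in this pair, 47 in SAM1 and SAM2, 46 in ADK1 and ADK2, 41 in MTO3 and MAT3 and 35 in SAHH1 and SAHH2. Overlaps with genes on the opposite strand were more extensive for a pair of members. MTO3 shared 19.7% of its 100-nt stretches with AT3G03475, which is not among the listed genes and so has no value. ADK2 shared 15.4% with AT5G03310. In the 6 libraries AT5G03310 was at 0.140 to 0.224 scaled TPM and ADK2 at 8.45 to 11.9 scaled TPM. The sources used here do not say whether counting was by strand, so the values of MTO3 and ADK2 may include reads of these neighbours. MTO3 also overlapped AT3G17380 by 49 bases, and the other 8 members overlapped no annotated gene.

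All 10 members were among the 3774 genes with a mean of at least 5 TPM on the rescaled listing, which were tested with limma on log2(scaled TPM + 1). This scale understates changes at low levels. At a Benjamini-Hochberg adjusted p under 0.05, called here, 5 of the 10 members were lower at LL36 and 0 were higher. At an unadjusted p under 0.05 these counts were also 5 and 0, and 1764 of the 3774 genes tested passed in either direction. Of all genes tested, 36.2% were called, with 19.6% lower and 16.6% higher. The 3 members with the strongest decrease were MS2, SAHH2 and MAT3, whereas SAHH1, SAM2 and ADK2 had log2 differences between -0.06 and 0.03. The median log2 difference was -0.31 over the members and 0.03 over all genes tested. The mean of log2 values was lower at LL36 in 9 of the 10 members and in 47.1% of all genes tested. In 5 members the LL24 libraries and the LL36 libraries were fully separate, a share close to the 50.7% found for all genes tested. Standard errors (SE) of log2 differences had a median of 0.13 over all genes tested.

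**Figure D1:**
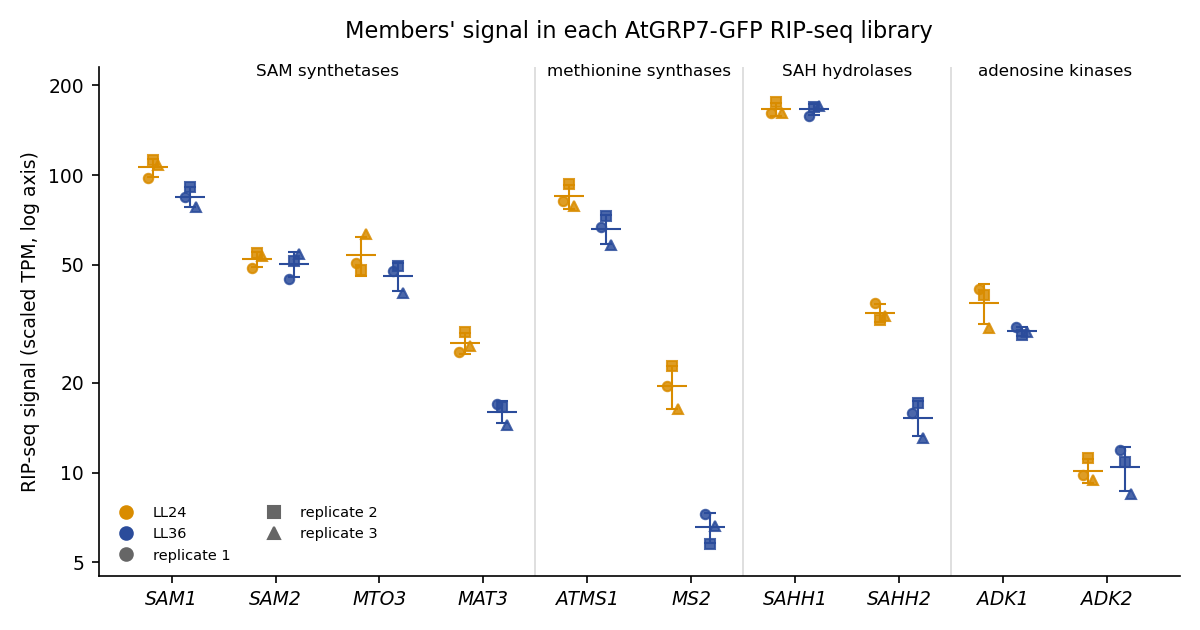
RIP-seq signal of each member in scaled TPM on a logarithmic axis, for 3 libraries at LL24 (orange) and 3 at LL36 (blue); symbols give the replicate number, long bars the mean and whiskers the SD. The libraries at LL36 lie wholly below those at LL24 for SAM1, MAT3, ATMS1, MS2 and SAHH2, and the groups overlap for the other 5 genes.

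The methionine synthases regenerate methionine from homocysteine. ATMS1 (AT5G17920, chromosome 5, 5935038 to 5939865, plus strand, 12 exons) was the more abundant of this pair. Its signal in replicates 1 to 3 was 81.9, 93.5 and 78.9 scaled TPM at LL24 and 66.9, 72.7 and 58.2 scaled TPM at LL36. The highest LL36 library thus lay below the lowest LL24 library. The means were 84.8 ± 7.74 and 65.9 ± 7.29 scaled TPM, a log2 difference of -0.36 (SE 0.12, limma, adjusted p = 0.0490). This call lay close to the threshold and was lost without LL24 replicate 1 (adjusted p = 0.0854), without LL24 replicate 2 (0.122), without LL36 replicate 1 (0.113) and without LL36 replicate 3 (0.134).

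MS2 (AT3G03780, chromosome 3, 956862 to 961032, plus strand, 11 exons) encodes the second cytosolic methionine synthase. It gave 19.5, 22.8 and 16.4 scaled TPM in the 3 libraries at LL24 and 7.27, 5.74 and 6.61 scaled TPM at LL36. Every LL36 library was below 8 scaled TPM and every LL24 library above 16 scaled TPM. The mean fell from 19.5 ± 3.21 to 6.54 ± 0.767 scaled TPM and was 2.99-fold higher at LL24. The log2 difference of -1.44 (SE 0.14, 95% interval -1.78 to -1.10, limma, adjusted p = 3.7e-04) was the largest of the 10 members in size. The summed signal of both methionine synthases was 104 ± 10.8 scaled TPM at LL24 and 72.5 ± 6.96 scaled TPM at LL36, a ratio of 0.695.

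The SAM synthetases use methionine and ATP to form SAM. SAM1 (AT1G02500, chromosome 1, 518091 to 520495, plus strand) had the highest level of the 4 genes. Its libraries gave 97.9, 112 and 108 scaled TPM at LL24 and 84.1, 91.5 and 78.1 scaled TPM at LL36, without overlap. The means were 106 ± 7.39 and 84.6 ± 6.69 scaled TPM, a log2 difference of -0.32 (SE 0.10, limma, adjusted p = 0.0413). As for ATMS1, the call depended on single libraries and remained without LL24 replicate 1 (adjusted p = 0.0407) but in no other leave-out. The adjusted p was 0.0975 without LL24 replicate 2, 0.0728 without LL24 replicate 3, 0.113 without LL36 replicate 1 and 0.112 without LL36 replicate 3, and it lay just above 0.05 without LL36 replicate 2.

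SAM2 (AT4G01850, chromosome 4, 795986 to 798381, minus strand) is the closest relative of SAM1 in the set. It was measured at 48.8, 54.5 and 53.4 scaled TPM at LL24 and at 44.7, 51.6 and 54.4 scaled TPM at LL36. The lowest and the second highest of these values were both from LL36, and the groups overlapped. The log2 difference was -0.06 (SE 0.10, 95% interval -0.30 to 0.19, limma, adjusted p = 0.692).

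MTO3 (AT3G17390, chromosome 3, 5952187 to 5954091, minus strand) is named after a mutant that accumulates methionine. Its libraries gave 50.6, 48.0 and 63.2 scaled TPM at LL24 and 47.5, 49.5 and 40.1 scaled TPM at LL36. LL24 replicate 3 was high and LL36 replicate 3 was low, and the remaining 4 libraries lay between 47 and 51 scaled TPM. The log2 difference of -0.23 did not pass the test (SE 0.14, 95% interval -0.55 to 0.09, limma, adjusted p = 0.231). It was -0.14 without LL24 replicate 3 and also -0.14 without LL36 replicate 3.

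MAT3 (AT2G36880, chromosome 2, 15479281 to 15481412, minus strand) was the least abundant SAM synthetase. It gave 25.4, 29.6 and 26.7 scaled TPM at LL24 and 17.0, 16.6 and 14.4 scaled TPM at LL36. All LL24 libraries stood clear of all LL36 libraries. The mean fell from 27.2 ± 2.16 to 16.0 ± 1.38 scaled TPM and was 1.70-fold higher at LL24, with a log2 difference of -0.73 (SE 0.10, 95% interval -0.98 to -0.48, limma, adjusted p = 0.0020). The 4 SAM synthetases together were at 239.5 ± 15.0 scaled TPM at LL24 and at 197 ± 11.4 scaled TPM at LL36, a ratio of 0.820. Each of the 4 SAM synthetase genes has 2 exons.

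The SAH hydrolases remove the product inhibitor of methyltransferases. SAHH1 (AT4G13940, chromosome 4, 8054673 to 8057181, plus strand, 2 exons), also known as HOG1 for its role in homology-dependent gene silencing, was the most abundant of the 10 members at both time points. It was at 162, 176 and 161 scaled TPM at LL24 and at 158, 169.8 and 171 scaled TPM at LL36. The means of 166 ± 8.41 and 166 ± 6.94 scaled TPM were the same to 3 digits. The log2 difference was -5.0e-04 with an SE of 0.08 and a 95% interval of -0.20 to 0.20 (limma, adjusted p = 0.997). This interval holds for the main scaling only. On the TPM as deposited the log2 difference was -0.34, outside the interval and not called (limma, adjusted p = 0.654).

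SAHH2 (AT3G23810, chromosome 3, 8587622 to 8589754, minus strand, 2 exons) encodes the second SAH hydrolase. It gave 37.1, 32.6 and 33.5 scaled TPM at LL24 and 15.8, 17.1 and 13.0 scaled TPM at LL36. No LL36 library passed 18 scaled TPM, and no LL24 library was below 32 scaled TPM. The mean fell from 34.4 ± 2.35 to 15.3 ± 2.08 scaled TPM, being 2.25-fold higher at LL24, with a log2 difference of -1.12 (SE 0.12, 95% interval -1.41 to -0.84, limma, adjusted p = 5.0e-04). The summed signal of both hydrolases, of which SAHH1 made up the larger part, was 201 ± 7.17 scaled TPM at LL24 and 182 ± 6.65 scaled TPM at LL36, a ratio of 0.904.

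The adenosine kinases phosphorylate the adenosine released by SAH hydrolase. ADK1 (AT3G09820, chromosome 3, 3011780 to 3014944, plus strand, 12 exons) was at 41.4, 39.4 and 30.7 scaled TPM at LL24 and at 30.9, 29.0 and 29.6 scaled TPM at LL36. LL24 replicate 3 lay within the range of the LL36 libraries, and the other LL24 libraries lay above it. The log2 difference was -0.30 (SE 0.13, 95% interval -0.60 to 0.0018, limma, adjusted p = 0.109) and was called without LL24 replicate 3 (-0.45, adjusted p = 0.0152). ADK2 (AT5G03300, chromosome 5, 796361 to 799810, plus strand, 11 exons) was the only member with a higher mean at LL36. Its libraries gave 9.77, 11.2 and 9.45 scaled TPM at LL24 and 11.9, 10.9 and 8.45 scaled TPM at LL36. The groups overlapped, and the log2 difference was 0.03 (SE 0.14, 95% interval -0.31 to 0.36, limma, adjusted p = 0.897). The sum of both kinases was 47.3 ± 6.23 scaled TPM at LL24 and 40.2 ± 2.37 scaled TPM at LL36, a ratio of 0.851.

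**Figure D2:**
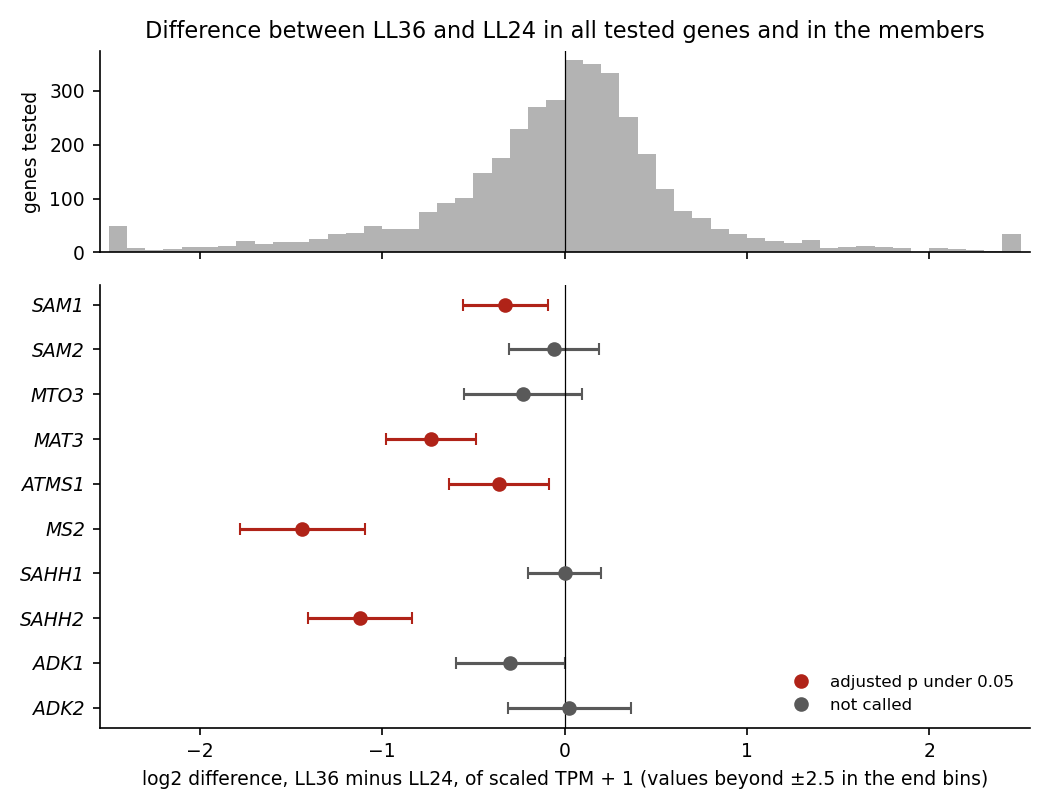
Upper panel, number of the 3774 tested genes by log2 difference LL36 minus LL24 of scaled TPM + 1, with values beyond the axis collected in the end bins; lower panel, the same difference for each member with its 95% interval, red where the adjusted p was under 0.05. MS2 at -1.44 and SAHH2 at -1.12 lie farthest to the left, and SAHH1 lies at 0.

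The decreases of MS2, SAHH2 and MAT3 were called in each of the 16 alternative analyses in which these genes were tested. The calls of SAM1 and ATMS1 were lost in 12 and 10 of 17 alternatives, respectively, with adjusted p of 0.0145 to 0.251 for SAM1 and 0.0243 to 0.221 for ATMS1. Accordingly, the count of members called was 3 with the TPM as deposited. With that scaling 580 of all genes were called, of which 19.8% were higher at LL36, compared with 1366 genes and 45.8% higher in the main analysis, and the median log2 difference of all genes was -0.18.

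The members also differed widely in level. At LL24, SAHH1 was followed by SAM1, ATMS1, MTO3, SAM2, ADK1, SAHH2, MAT3, MS2 and ADK2, and its mean in scaled TPM was 16.4-fold that of ADK2. The libraries of neighbours in this order overlapped for MTO3 and SAM2 and for ADK1 and SAHH2, and not for the other neighbours. At LL36 the order was SAHH1, SAM1, ATMS1, SAM2, MTO3, ADK1, MAT3, SAHH2, ADK2 and MS2, with overlap for SAM2 and MTO3 and for MAT3 and SAHH2. MS2 thus moved from above ADK2 to below it, and the span from SAHH1 to the lowest gene was 25.4-fold. Among all 3774 tested genes ordered by mean level, SAHH1 ranked 183, SAM1 333, ATMS1 430 and ADK2 2163. TPM is corrected for length, so the order is one of recovered RNA per unit of transcript length. Between genes, too, the amount of transcript in the tissue and binding by AtGRP7 cannot be told apart. As deposited, before rescaling, the values ran from 0.513 TPM for MS2 in LL36 replicate 3 to 27.2 TPM for SAHH1 in LL24 replicate 3.

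Both genes of a pair are measured in the same library, so the share of each in their summed signal does not depend on how the library was scaled. The log2 ratio of the first gene over the second, with 1 scaled TPM added to each, does depend on the scale through this pseudocount. It was compared between time points in 5 pairs with an exact permutation test, two-sided, which cannot give a p below 0.1 with 3 libraries against 3. SAHH1 took 81.4%, 84.4% and 82.8% of the summed signal of the SAH hydrolases at LL24 and 90.9%, 90.9% and 92.9% at LL36. The log2 ratio of SAHH1 over SAHH2 was larger by 1.12 at LL36 (p = 0.1, exact permutation test, Benjamini-Hochberg adjusted p = 0.125 over the 5 pairs), and the time points did not overlap. With the TPM as deposited the difference was 0.78.

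ATMS1 took 80.8%, 80.4% and 82.8% of the methionine synthase signal at LL24 and 90.2%, 92.7% and 89.8% at LL36. The log2 ratio of ATMS1 over MS2 was larger by 1.08 at LL36, again without overlap (p = 0.1, exact permutation test, adjusted p = 0.125). It was 0.49 with the TPM as deposited, where the pseudocount is large against the values. In both pairs the share of the minor gene was lower in every library of the subjective evening than in any library of the subjective morning.

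MTO3 took 66.2% ± 4.25 of the signal of MTO3 and MAT3 at LL24 and 74.0% ± 0.714 at LL36. The log2 ratio was larger by 0.50 at LL36 without overlap (p = 0.1, exact permutation test, adjusted p = 0.125), and by 0.30 with the TPM as deposited (p = 0.2, exact permutation test). The pair of SAM1 and SAM2 shifted in the other direction. SAM1 took 67.0% ± 0.288 at LL24 and 62.7% ± 3.33 at LL36, and its log2 ratio over SAM2 was smaller at LL36 (-0.27), without overlap (p = 0.1, exact permutation test, adjusted p = 0.125). LL36 replicate 3, with a share of 59.0%, was the lowest library, and without it the difference was -0.15.

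The share of ADK1 in the adenosine kinase signal was 78.4% ± 2.28 at LL24 and 74.2% ± 3.13 at LL36. These groups overlapped, and the difference of the log2 ratio was -0.32 (p = 0.2, exact permutation test, adjusted p = 0.2). In 4 of the 5 pairs the 3 libraries of 1 time point were all above those of the other, and in none could the test reach 0.05. Single genes were without overlap in 50.7% of all genes tested. No such share was computed for ratios of other gene pairs, so the count has no background of its own. In these ratios as well, overlap of MTO3 and ADK2 with genes on the opposite strand was not separated.

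**Figure D3:**
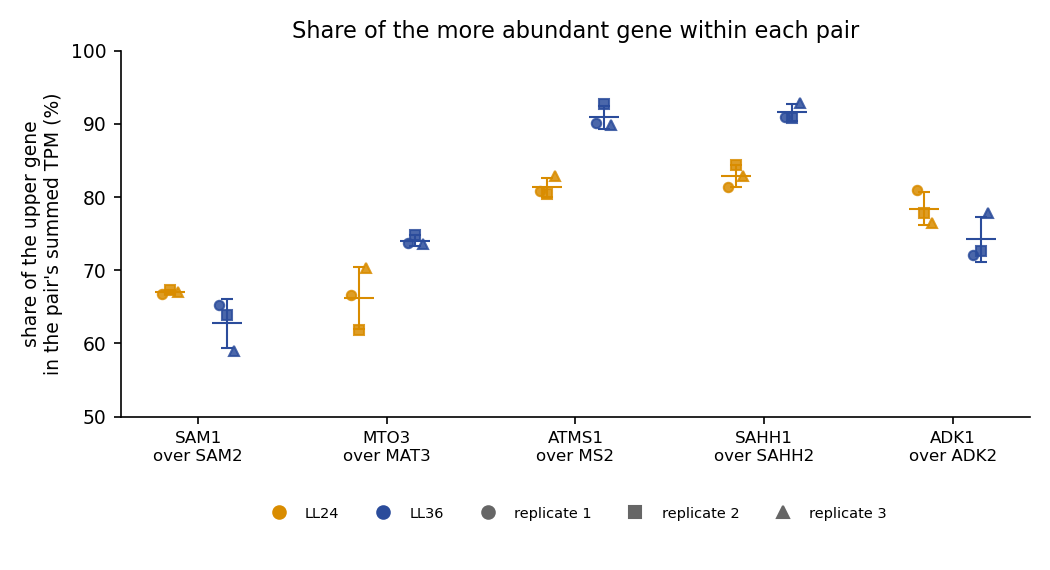
Share of the more abundant gene in the summed TPM of each of 5 pairs, in percent on an axis from 50 to 100, for 3 libraries at LL24 (orange) and 3 at LL36 (blue), with mean and SD. The shares of ATMS1 and SAHH1 lie between 80.4% and 84.4% at LL24 and between 89.8% and 92.9% at LL36, and the ADK1 libraries overlap.

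The other genes that feed the cycle or draw on it were taken from a list of 40 genes, of which 24 passed the limit and were tested. In this list 15 genes were called, 11 lower and 4 higher at LL36, and in 17 the time points did not overlap. Over all genes tested the shares were 36.2% called, 19.6% lower, 16.6% higher and 50.7% without overlap. Its median log2 difference was -0.15, compared with 0.03 for all genes tested. With the TPM as deposited 8 genes of the list were called, all lower.

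All 4 genes listed for the supply of the methyl group, which encode serine hydroxymethyltransferases and methylenetetrahydrofolate reductases, were called lower, compared with 19.6% of all genes tested. The log2 differences of these 4 genes were -0.71 to -0.35. The call of MTHFR1, named here after its values were seen, was lost when no limit on low values was set (limma, adjusted p = 0.0235 in the main analysis and 0.0983 without a limit). MTHFR1 overlaps AT3G09305 and AT3G59980 on the opposite strand, whose reads may be included. Of the 8 genes listed for methionine supply, 2 were tested and 1 was called. This was CGS1, the cystathionine gamma-synthase that commits carbon to methionine, with 29.0, 30.5 and 29.5 scaled TPM at LL24 and 12.1, 11.0 and 12.9 scaled TPM at LL36. The libraries stood far apart, with a log2 difference of -1.24 (SE 0.09, limma, adjusted p = 9.4e-05).

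The 6 genes listed as methyltransferases, a selection and not the whole class, were all tested. By limma 4 were called lower and 0 higher, beside 19.6% lower and 16.6% higher among all genes tested. The counts were the same at an unadjusted p under 0.05, which 1764 of all 3774 genes tested passed in either direction. The largest decreases were those of PMT2 and PMT3, which encode phosphobase N-methyltransferases of phosphatidylcholine synthesis. PMT2 was at 614, 428 and 427 scaled TPM at LL24 and at 269, 205 and 189 scaled TPM at LL36. The log2 difference was -1.14 (SE 0.19, limma, adjusted p = 0.0039), with LL24 replicate 1 well above the others. PMT3 fell from 17.2 ± 2.09 to 5.46 ± 0.959 scaled TPM, a log2 difference of -1.50 (SE 0.14, limma, adjusted p = 3.1e-04). PEAMT1 of the same enzyme family, named here after its values were seen, had a log2 difference of 0.70 that did not pass the test (SE 0.40, limma, adjusted p = 0.219), with 27.9, 18.4 and 50.5 scaled TPM at LL24 and 51.1, 32.2 and 70.0 scaled TPM at LL36.

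Genes that take SAM into polyamines moved in both directions. SAMDC1, an S-adenosylmethionine decarboxylase, was at 395, 458 and 450.3 scaled TPM at LL24 and at 159, 163 and 199.7 scaled TPM at LL36. Its log2 difference was -1.32 (SE 0.12, limma, adjusted p = 2.4e-04), and it was more abundant than any of the 10 members at LL24. The spermidine synthase genes SPDS1 and SPDS2, whose products use decarboxylated SAM, rose from 14.1 ± 1.31 to 21.7 ± 0.775 and from 7.77 ± 0.864 to 13.5 ± 0.562 scaled TPM, respectively. SPDS1 overlaps AT1G05833 on the opposite strand, whose reads may be included. Their log2 differences were 0.59 and 0.73 (limma, adjusted p = 0.0036 and 0.0022). Both calls depended on the scaling. They were lost with the TPM as deposited, with adjusted p of 0.782 and 0.593, and without the trimmed-mean factors, with 0.170 and 0.0554.

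In the methionine salvage (Yang) cycle, which recovers methionine from methylthioadenosine, 4 of 9 genes were tested, with 1 called in each direction. Both encode acireductone dioxygenases. ARD4 was at 32.6, 27.8 and 26.7 scaled TPM at LL24 and at 7.35, 6.42 and 8.88 scaled TPM at LL36, and its log2 difference of -1.82 (SE 0.14, limma, adjusted p = 1.0e-04) was the largest in size of the 24 genes. ARD1 rose from 8.14 ± 0.441 to 12.5 ± 1.17 scaled TPM, with a log2 difference of 0.56 (limma, adjusted p = 0.0064), and this call was also lost with the TPM as deposited (adjusted p = 0.798) and without the trimmed-mean factors (0.167).

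APT1, an adenine phosphoribosyltransferase that salvages the adenine released in the Yang cycle, had the largest increase of the list. It was at 24.1, 22.9 and 25.0 scaled TPM at LL24 and at 44.7, 41.7 and 45.8 scaled TPM at LL36, without overlap. The log2 difference was 0.85 (SE 0.09, limma, adjusted p = 3.7e-04), and the call was lost with the TPM as deposited (adjusted p = 0.438). Limma called 0 of the 3 ethylene synthesis genes tested and 0 of the 1 SAM transporter gene tested, beside 36.2% of all genes tested. At an unadjusted p under 0.05 these counts were also 0, and 1764 of all 3774 genes tested passed.

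**Figure D4:**
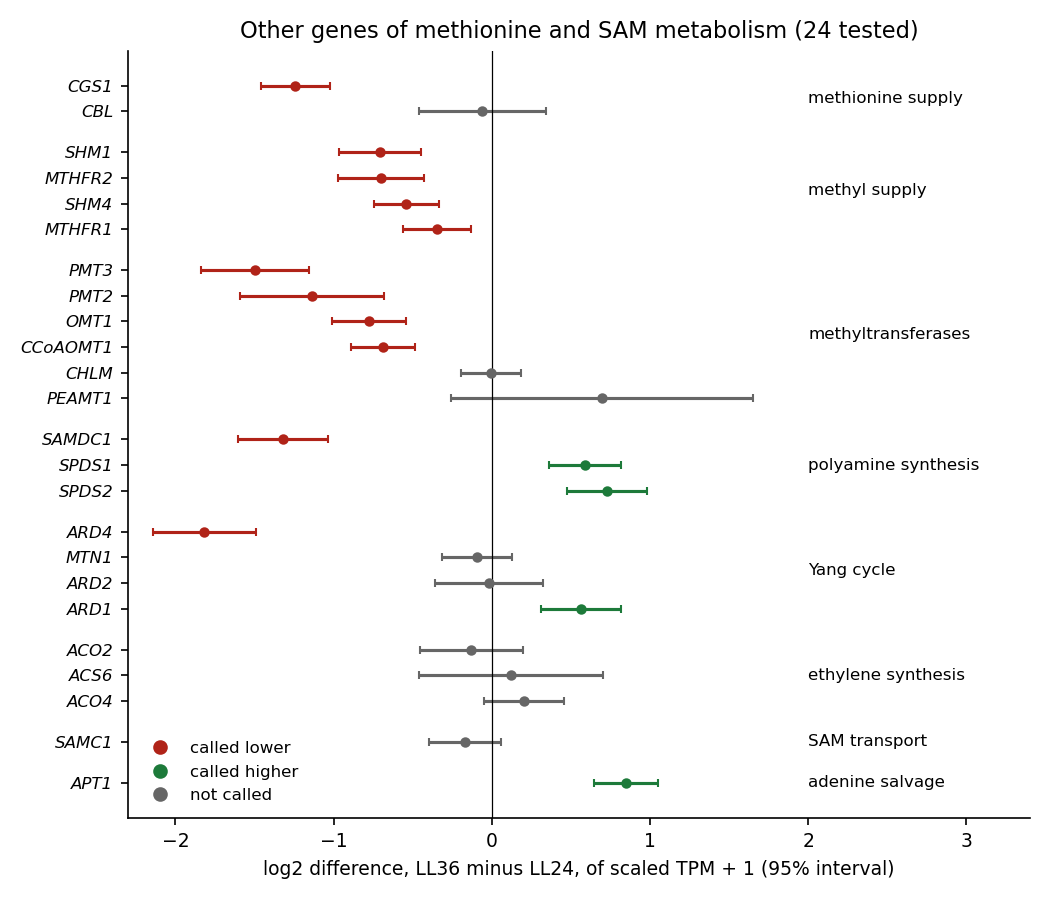
Log2 difference LL36 minus LL24 of scaled TPM + 1 with its 95% interval for the 24 tested genes of the wider list, arranged by role; red marks genes called lower, green genes called higher and grey genes not called. The genes of methyl supply all lie left of 0, and the called genes of polyamine synthesis and of the Yang cycle lie on both sides.

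Short motifs were looked up around the members in TAIR10.1, as a description of the sequences. The evening element AAAATATCT, the CCA1-binding site AAAAATCT and the G-box CACGTG are letters known from clock- and light-regulated promoters and were searched on both strands of the 250 bases before the annotated start. None of these motifs contains another. Among 27444 protein-coding genes they occurred in 2.36%, 6.69% and 6.49% of such windows. MTO3 held the evening element at 172 to 164 bases before the start, MAT3 held a G-box at 49 to 44 bases and SAHH1 at 10 to 5 bases, and no member held AAAAATCT. Of these 3 genes only MAT3 was called. The matches are shown in capitals within 30 bases.
MTO3: tacatgctcaAAAATATCTaatttgcagca
MAT3: tagatcataaaaCACGTGatcagagctccg
SAHH1: tgaaacaaataaaacacagcCACGTGtcca

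In the transcripts, 2 motifs were searched on the sense strand. TTCTGG lies in a known in vitro binding site of AtGRP7 in the 3′ untranslated region of its own transcript. It was found in the 3′ untranslated region of SAM2, at 103 to 108 bases after the stop codon, in no other member, and in 6.63% of the 23318 coding genes with such a region annotated.
SAM2: tgatatgaaagtTTCTGGtttgtttaaaca
The U/C-rich octamer TCTTCTTC was found once each in the transcripts of SAM1 and ATMS1 and at 2 places each in those of SAHH2 and ADK2, compared with 32.9% of all protein-coding genes with at least 1 match. Genes with and without this octamer occurred among the members called lower, since MS2 and MAT3 held none.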

How the data were processed

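RIP-seq libraries of AtGRP7-GFP plants were compared between LL24 and LL36 (3 biological replicates each, time point and replicate taken from the sample titles). The authors trimmed the reads, aligned them with STAR 2.5.2a to the AtRTD transcripts, estimated abundances with Salmon 0.8.2, summed them per gene and left out rRNA, mitochondrial and chloroplast genes. They used edgeR for their own enrichment test, which was not repeated. Their deposited values are TPM, 1 per gene in each library. The table has 6 more columns, named for the wild type Col-2, that match no sample of the series given here, and these were not used.

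The listed TPM were rescaled to 1000000 per library, since the listed sums are far lower. The scale of the study's limit of 5 TPM is not given in its methods. It was applied here after rescaling, an inference from the levels, and on the deposited scale as an alternative with 789 genes. Genes with a mean of 5 or more were kept. Factors were unweighted trimmed means of log ratios (30% of ratios and 5% of abundances trimmed). The time point was the only term of a linear model of log2(scaled TPM + 1), made with lmFit and eBayes with a trend (limma 3.58.1, R 4.3.3, two-sided), with Benjamini-Hochberg adjustment at 0.05 over all 3774 genes. The script was tested on simulated data. Of the 33331 identifiers, 32811 matched TAIR10.1.

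Named were all members and, of the 40 further genes, those called without overlap, at most 5 in each direction by size of the log2 difference. Members and lists were chosen with earlier results of these data known. Alternatives were other scalings, pseudocounts of 0.1 and 5, limits of 1, none or 5 deposited TPM, no variance trend, the replicate number as a block, and leaving out each library. TPM gives no depth, so no counting interval was computed.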

Additional observations from a re-analysis of the deposited data

How the results depend on the processing

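Direction and call held for MAT3, MS2 and SAHH2 in all 16 alternatives that tested them, with log2 differences of -0.82 to -0.62, -1.58 to -1.08 and -1.21 to -0.96. Members called, 5 in the main analysis, were 3 without trimmed-mean factors, 3 with TPM as deposited, 3 when rescaled without the 10 highest genes, 3 at a limit of 1 TPM, 3 with no limit, 3 without a variance trend, and 2 of 5 tested at a limit of 5 deposited TPM. Leaving out single libraries gave 3 to 5. All genes called were 1366 of 3774 tested in the main analysis, 738 of 3774 without factors (31.6% higher) and 580 of 3774 as deposited. At other limits they were 2343 of 9890 tested (1 TPM), 2163 of 22084 (no limit) and 347 of 789 (5 deposited TPM). These tested sets differ in size, so the counts cannot be compared without their totals. With a library left out, 988 to 1194 genes were called. The wider list, with 15 genes called, gave 8 as deposited and 3 of 5 tested at 5 deposited TPM. CGS1, ARD4, SAMDC1, PMT2 and PMT3 were called lower in every alternative that tested them. The cause of these shifts was not tested.

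Members with differences near 0 changed sign. ADK2 was at -0.054 without factors and -0.16 as deposited, SAHH1 at 0.044 without the 10 highest genes, 0.026 at a limit of 1 TPM and 0.062 with no limit, and SAM2 at 0.0026 with no limit. Other scalings moved SAHH1 and SAM2 farther from 0. SAHH1 was at -0.092 without factors and -0.34 as deposited, and SAM2 at -0.15 and -0.36. The median of all genes as deposited was -0.18. With a library left out the ranges were -0.064 to 0.16 (ADK2), -0.049 to 0.040 (SAHH1) and -0.12 to 0.026 (SAM2). None was called in either direction.

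Same-numbered libraries did not deviate together (correlations across genes of -0.04, -0.04 and -0.10). These values cannot show whether same-numbered samples were grown or processed together. With the replicate block 4 members (limma, adjusted p = 0.0682 for SAM1), 1057 genes and 15 of the wider list were called. The pair ratios had p of 0.25 to 0.5 in an exact sign-flip test. With 3 libraries per time point this test cannot give a p below 0.25, so it cannot decide whether a ratio shifted. The pair ratios kept their direction in 10 of 10 alternatives each. With deposited TPM, where a pseudocount of 1 is large against the values, the difference for ATMS1 over MS2 was 0.49, for MTO3 over MAT3 0.30 and for SAHH1 over SAHH2 0.78.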
